A study of Homo sapiens with 15 samples.

Results

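The genes described here are 10 transcripts of protein folding and quality control in the endoplasmic reticulum (ER): HSPA5, HSP90B1, CALR, CANX, PDIA3, PDIA4, PDIA6, DNAJB9, HERPUD1 and SYVN1. They were taken by symbol, from a list drawn up with earlier results of these data known, so counts over them describe these genes and are no independent support. All 10 were found among the 18485 gene symbols of the count table. All 10 were also among the 6767 genes deep enough to be tested. SNB19 is a human glioblastoma cell line, and every group consisted of SNB19 cells carrying a lentiviral pCHMWS vector. One group carried full-length ZBTB18 (FL), one a mutant of the full-length protein (FL-mut), one the short form Nte (SF-Nte), one the mutated short form (SF-mut), and the last the empty vector (EV). ZBTB18 is a zinc finger transcriptional repressor. The labels give neither the residues changed in the mutants nor the promoter of the vector, nor do they say whether the transduced cells were clones. Each of the 5 groups had 3 replicate libraries of oligo-dT-purified mRNA, read as PCR-amplified cDNA on the Oxford Nanopore platform, 15 in all. The comparisons ask how these transcripts stood with each ZBTB18 construct relative to EV, with each short form relative to the full-length protein, and with each mutant relative to its parent form.

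Proteins of the secretory pathway fold in the ER with the help of chaperones that bind unfolded chains, lectins that hold glycoproteins, and disulfide isomerases. Chains that fail to fold are sent back to the cytosol through a membrane complex built around the ubiquitin ligase HRD1, the product of SYVN1, and are degraded by the proteasome, a route called ER-associated degradation. When unfolded chains accumulate, the sensors IRE1, PERK and ATF6 start the unfolded protein response, which raises the transcription of many chaperones and of several degradation components.

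Much of that transcription passes through a short promoter element, the ER stress response element, so the promoters of the members on which the results turn are shown first. The window before the RefSeq start site was searched on both strands for the ER stress response element (CCAAT, then 9 bases of any kind, then CCACG), ER stress response element II (ATTGG, 1 base of any kind, then CCACG), TGACGTGG (an unfolded protein response element) and ACATCTG (the core of the ZBTB18 binding motif). RefSeq held sequence for 9 of the 10 genes, and the 250 bases before each RefSeq start were searched. The first element was found in 5 of the 9 genes (HSPA5, HSP90B1, CALR, CANX and PDIA6), and 0.0744% of the 34941 windows of all genes hold it. The second was found in HERPUD1, against 0.0515% of all windows. The unfolded protein response element and the ZBTB18 core were found in 0 of the 9 genes, against 0.615% and 2.83% of all windows. A member counted when any of its windows matched (CANX has 4), while the shares over all genes are per window, so the measures differ. The members belong to the response to which these elements are tied above, so matches were likely beforehand and are no enrichment found here. A match describes the letters only and does not show that a factor binds. The matches in the ER stress response elements follow as they read on the gene's strand, with the fixed letters in capitals.
HSPA5: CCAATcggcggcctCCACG
HSP90B1: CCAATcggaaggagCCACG
HSP90B1, reverse orientation: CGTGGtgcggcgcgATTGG
CALR, reverse orientation: CGTGGtcgaccatcATTGG
CANX: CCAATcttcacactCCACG
PDIA6: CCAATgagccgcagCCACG
HERPUD1: ATTGGgCCACG

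Counted back from the RefSeq start, the matches began 66 bases before it in HSPA5, 194 and 89 in HSP90B1, 225 in CALR, 86 in PDIA6 and 117 in HERPUD1. In CANX the same match lies in the windows of more than 1 start. Longer context is given for HSPA5, the member that varied together with HERPUD1, for HERPUD1, and for SYVN1, the member that passed the test (RefSeq, GRCh38.p14). The sequences end before the first GENCODE start of the gene, so HERPUD1 is printed for the first 156 and SYVN1 for the first 236 of the 250 bases searched, and their last printed base lies before the RefSeq start from which the distances are counted. The printed stretches are chr9:125241344-125241593 on the minus strand for HSPA5, chr16:56931892-56932047 on the plus strand for HERPUD1 and chr11:65134534-65134769 on the minus strand for SYVN1, with matched elements in capitals. The 250 bases searched for SYVN1 hold none of the 4 motifs.
HSPA5: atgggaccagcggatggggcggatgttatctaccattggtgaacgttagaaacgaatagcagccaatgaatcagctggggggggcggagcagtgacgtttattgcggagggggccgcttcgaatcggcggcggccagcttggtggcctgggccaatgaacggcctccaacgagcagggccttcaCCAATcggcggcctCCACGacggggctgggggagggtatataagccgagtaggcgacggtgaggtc
HERPUD1: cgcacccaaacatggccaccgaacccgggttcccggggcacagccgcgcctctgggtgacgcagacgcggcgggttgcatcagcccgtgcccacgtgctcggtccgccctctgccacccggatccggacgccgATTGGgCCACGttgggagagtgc
SYVN1: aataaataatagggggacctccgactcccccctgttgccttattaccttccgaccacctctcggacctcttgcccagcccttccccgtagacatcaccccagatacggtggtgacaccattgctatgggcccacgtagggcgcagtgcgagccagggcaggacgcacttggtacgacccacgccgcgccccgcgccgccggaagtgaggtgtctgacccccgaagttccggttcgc

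Total counts per library were 803316 to 1393060 with FL, 865997 to 1313573 with FL-mut, 432611 to 603155 with SF-Nte, 315693 to 597414 with SF-mut, and 1274474 to 1930245 with EV, so the short-form libraries were the shallowest. A second sample sheet lists the SF-mut libraries with SF-Nte, and the barcode names of SF-mut repeat earlier ones with a suffix, so handling apart from the rest and the form of the protein cannot be told apart. Levels below are CPM, read counts relative to the library's total as scaled by TMM. ZBTB18 itself stood between 199 and 6858 CPM in the 12 construct libraries and between 4.37 and 7.12 CPM in EV, and these counts do not separate the transcript of the vector from that of the cell. Of 12 glial and glioblastoma markers, 10 were read; VIM, CD44 and SLC1A3 were present, while GFAP averaged 1.17 CPM and S100B 0.41 CPM. The summed level of the 10 was 216 to 474 CPM in FL, 598 to 910 in FL-mut, 958 to 1180 in SF-Nte, 968 to 1187 in SF-mut and 519 to 1043 in EV, and its part in the results was not tested. Markers of other cell types summed to at most 30.8 CPM (immune), 21.4 (endothelial), 41.9 (neuronal), 113 (fibroblast) and 151 (epithelial). The labels do not say that replicates were separate cultures, so p-values measure the spread between these libraries.

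SYVN1 encodes HRD1, the membrane ubiquitin ligase at the centre of ER-associated degradation (chromosome 11, 65121780 to 65134533, minus strand, GRCh38). SYVN1 was lower in SF-Nte than in FL. This was the single call among the 10 genes by edgeR, with the filter on low counts, in the 8 comparisons of 2 groups. For those comparisons, calls by DESeq2 or without the filter are given beside the genes they concern. Calls over the 5 groups at once are gathered further below. SYVN1 had 20.8, 46.0 and 32.9 CPM with FL, 25.2, 11.3 and 15.5 with FL-mut, 0, 0 and 0 with SF-Nte, 0, 0 and 10.3 with SF-mut, and 11.5, 3.64 and 13.4 with EV. The SF-Nte libraries, at 0, lay below every library of FL, FL-mut and EV by value. A floor of 3 counts in a single SF-Nte library corresponds to 5.65 to 7.47 CPM. EV replicate 2, at 3.64 CPM, lay under that floor, so depth does not allow SF-Nte to be placed below it. Every FL library lay above every EV library, while FL-mut overlapped with both FL and EV. The raw counts behind these levels were 30, 37 and 34 with FL, 0 in each SF-Nte library and 23, 5 and 15 with EV.

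With 3 counts over the group as the floor, SYVN1 was at least 16.1-fold lower in SF-Nte (0 counts, a floor of 2.07 CPM) than in FL, where it averaged 33.2 ± 12.6 CPM (SD, n = 3). The edgeR adjusted p was 0.0362, in a comparison that called 1.06% of all genes tested and 0.576% of them as lower. Without 1 library the call was kept for FL replicate 1 (adjusted p = 0.0478) and lost for FL replicate 2 (0.14), FL replicate 3 (0.0823) and SF-Nte replicates 1, 2 and 3 (0.128, 0.114 and 0.1). In a bulk sample, fewer cells carrying a transcript and less of it per cell cannot be told apart. ZBTB18 itself stood at 199 to 470 CPM in SF-Nte and at 623 to 3067 CPM in FL. The level of ZBTB18 and the form of the protein therefore cannot be told apart in this comparison.

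Depth bears on those zeros. At the mean level of FL, 17.3, 17.7 and 13.35 counts of SYVN1 would have been read in the SF-Nte libraries. At the mean level of EV, these libraries would have held 4.93, 5.05 and 3.82 counts. Among the 1560 genes with an FL mean within 1.5 times that of SYVN1, 0.705% had 0 counts in all SF-Nte libraries. Reads carry no molecular identifiers, so floors and intervals cover counting error only.

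With the filter on low counts, edgeR called SYVN1 in no other comparison of 2 groups. Without the filter it also called SYVN1 in SF-Nte against EV (adjusted p = 0.0431). That fit called 121 of 18485 genes there, against 3 of 6767 with the filter. Against EV, SYVN1 was 1.79 ± 0.85 higher on the log2 scale in FL (SE, n = 3; edgeR adjusted p = 0.671). It was at least 4.60-fold lower in SF-Nte (edgeR adjusted p = 0.554). SF-mut lay below FL-mut without overlap, with a log2 fold change of -2.26 ± 1.02 (edgeR adjusted p = 0.496). The 2 groups nearly met, at 10.3 CPM in SF-mut replicate 3 and 11.3 CPM in FL-mut replicate 2. SF-mut replicate 3 alone held counts of SYVN1 in that group. Between SF-mut and SF-Nte the bound was at least 1.65-fold lower in SF-Nte, and the groups overlapped at 0.

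The span of SYVN1 overlaps that of FAU, which encodes a ubiquitin-like protein fused to a ribosomal protein, on the same strand over 694 bases, and that of MRPL49, on the opposite strand, over 5189 bases. Whether the counting used strand is not given in the sources used here, so reads of such overlaps are uncertain. In SF-Nte against FL the log2 fold change was -0.08 ± 0.29 for FAU (SE; edgeR adjusted p = 0.935) and -0.80 ± 0.63 for MRPL49 (adjusted p = 0.631). Neither neighbour stood at 0 in SF-Nte, where FAU held 1355 to 1549 CPM and MRPL49 9.96 to 48.9 CPM.

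**Figure D1:**
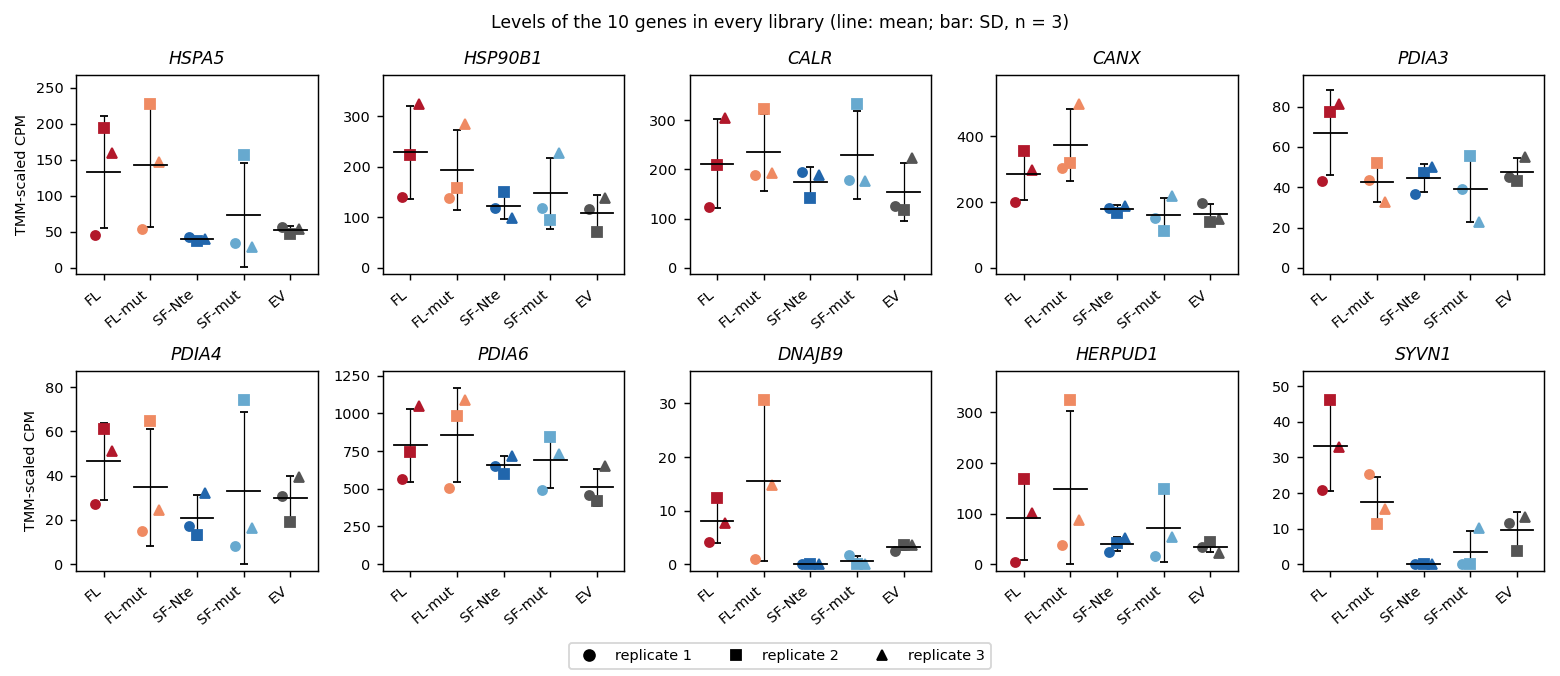
Levels of the 10 genes in TMM-scaled CPM (y axis, linear, 1 panel per gene) in the 5 groups (x axis). Symbols are libraries by replicate number, lines are means and bars are SD (n = 3, ended at 0). SYVN1 stood at 20.8 to 46.0 CPM in FL, at 0 in the 3 SF-Nte libraries and at 3.64 to 13.4 CPM in EV.

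SYVN1 was next set against the 7 chaperones and isomerases within each library (HSPA5, HSP90B1, CALR, CANX, PDIA3, PDIA4 and PDIA6). The summed chaperone level was 1145 to 2269 CPM in FL, 1243 to 2265 in FL-mut, 1154 to 1317 in SF-Nte, 1018 to 1671 in SF-mut and 854 to 1311 in EV. The chaperone sums of SF-Nte overlapped with those of EV and FL. Of 1000 counts of SYVN1 and the 7 genes together, SYVN1 held 17.8, 24.1 and 14.3 with FL, 19.9, 5.30 and 6.79 with FL-mut, 0, 0 and 0 with SF-Nte, 0, 0 and 7.16 with SF-mut, and 11.0, 4.25 and 10.1 with EV. FL again lay wholly above EV and SF-Nte wholly below FL, FL-mut and EV. In SF-Nte, 0 of 1786 counts fell on SYVN1, which allows a share of up to 1.68 per 1000. On the log2 scale with 0.5 CPM added, SYVN1 minus the mean of the 7 genes was -2.34 ± 0.31 for FL (SD, n = 3), -3.17 ± 1.04 for FL-mut, -7.62 ± 0.12 for SF-Nte, -6.24 ± 2.71 for SF-mut and -3.49 ± 0.67 for EV. These values are set across groups and not between genes, whose lengths differ, and the values for both short forms depend on the amount added, because SYVN1 had 0 counts in all SF-Nte libraries and in SF-mut replicates 1 and 2. With 2 CPM added they were -5.66 for SF-Nte and -4.88 for SF-mut, and the SF-mut value ran from -7.78 to -5.23 with 1 library left out. The members chosen enter this difference, so it is a description without a test.

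**Figure D2:**
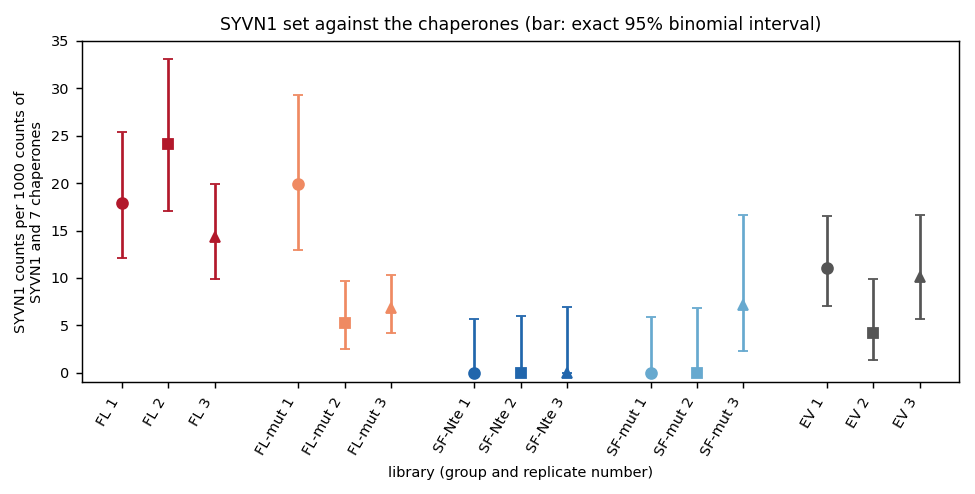
SYVN1 counts per 1000 counts of SYVN1 and 7 chaperones and isomerases (y axis) in each of the 15 libraries (x axis), with exact 95% binomial intervals as bars, which cover counting error only. The FL libraries held 14.3 to 24.1 per 1000, the SF-Nte libraries 0 and the EV libraries 4.25 to 11.0.

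HERPUD1 and DNAJB9 are the other members tied to degradation. HERPUD1 encodes a membrane protein that assembles with HRD1 (chromosome 16, 56932048 to 56944863, plus strand), and DNAJB9 encodes ERdj4, a co-chaperone of the HSPA5 protein that binds IRE1 and hands misfolded chains to degradation (chromosome 7, 108569568 to 108574850, plus strand). HERPUD1 had 4.85, 169 and 102 CPM with FL, 37.4, 324 and 87.0 with FL-mut, 25.0, 41.4 and 52.3 with SF-Nte, 16.3, 148 and 53.3 with SF-mut, and 33.5, 43.0 and 23.1 with EV. The spread within FL ran from the lowest library of all 15 to the second highest, and no group stood clear of another. With the filter on low counts, neither edgeR nor DESeq2 called HERPUD1 in any comparison. Without the filter, edgeR called it in FL-mut against EV (219 of 18485 genes) and over the 5 groups (1059 of 18485 genes). DNAJB9 had 4.16, 12.4 and 7.74 CPM with FL, 1.01, 30.6 and 14.7 with FL-mut, 0, 0 and 0 with SF-Nte, 1.63, 0 and 0 with SF-mut, and 2.50, 3.64 and 3.56 with EV. FL lay above EV, and both short forms lay below EV and FL by value, without overlap. The floor of 3 counts was 4.90 to 9.25 CPM in single short-form libraries. All EV libraries and FL replicate 1, at 4.16 CPM, lay under it, so depth does not allow the short forms to be placed below those. None of these differences between 2 groups passed. Over the 5 groups, DESeq2 called DNAJB9 (9.63% of all genes), as did edgeR without the filter (1059 of 18485 genes).

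The log2 fold change of DNAJB9 was 1.28 ± 1.09 in FL against EV (SE, n = 3; edgeR adjusted p = 0.888) and -2.05 ± 1.54 in SF-mut against EV (adjusted p = 0.997). The SF-mut value rests on 1 count, in replicate 1, and was -4.68 without that library. SF-Nte stood at least 3.93-fold below FL (adjusted p = 0.196) and at least 1.57-fold below EV (adjusted p = 0.678, with an unadjusted p of 0.0444). At the EV mean, the SF-Nte libraries would have held 1.30 to 1.72 counts of DNAJB9 each. Only FL replicate 2 and FL-mut replicates 2 and 3 held 10 or more counts of it (10, 27 and 20), the filter's minimum count. DNAJB9 was thus tested through the full-length groups. The span of DNAJB9 overlaps those of PNPLA8 and THAP5 on the opposite strand by 99 and 183 bases.

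HSPA5 encodes BiP, the ER Hsp70 that binds unfolded chains and holds the stress sensors inactive (chromosome 9, 125234853 to 125241330, minus strand). It had 45.1, 194 and 159.7 CPM with FL, 54.5, 227 and 147 with FL-mut, 42.4, 37.6 and 39.8 with SF-Nte, 34.3, 157 and 28.7 with SF-mut, and 56.5, 47.4 and 54.3 with EV. The 5 high libraries were replicates 2 and 3 of FL and FL-mut and replicate 2 of SF-mut, and the SF-Nte libraries lay below those of EV and FL without overlap. The log2 fold change was -0.40 ± 0.66 in SF-Nte against EV (SE, n = 3; edgeR adjusted p = 0.931) and -1.73 ± 0.67 in SF-Nte against FL (adjusted p = 0.27). FL and FL-mut each overlapped with EV through replicate 1, and the mean CPM was 133 ± 78.0 with FL, 143 ± 86.6 with FL-mut and 52.7 ± 4.78 with EV (SD, n = 3 each). Over the 5 groups, edgeR without the filter called HSPA5 (1059 of 18485 genes), and DESeq2 did not.

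HSP90B1 encodes GRP94, the ER member of the Hsp90 family (chromosome 12, 103930107 to 103953645, plus strand). It had 140.1, 223 and 324 CPM with FL, 137, 158 and 285 with FL-mut, 117, 151 and 99.6 with SF-Nte, 119, 95.6 and 228 with SF-mut, and 116, 70.7 and 139 with EV. FL lay above EV, but its lowest library and the highest of EV nearly met. The log2 fold change was 1.08 ± 0.42 (SE, n = 3; edgeR adjusted p = 0.454), and HSP90B1 passed in no comparison. The span overlaps that of C12orf73 on the opposite strand, and its processed pseudogene HSP90B2P held 1 count in all libraries.

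CANX and CALR encode calnexin and calreticulin, the membrane-bound and the soluble lectin that retain glycoproteins until they fold. CANX (chromosome 5, 179678628 to 179730925, plus strand) had 201, 356 and 299 CPM with FL, 303, 319 and 498 with FL-mut, 181, 167 and 189 with SF-Nte, 150.3, 111 and 217 with SF-mut, and 198, 139.9 and 149.6 with EV. Both full-length groups lay above EV, SF-Nte lay below FL, and SF-mut lay below FL-mut, all without overlap. Its log2 fold change was 0.81 ± 0.32 in FL against EV (SE, n = 3; edgeR adjusted p = 0.452), 1.20 ± 0.32 in FL-mut against EV (0.169), -0.67 ± 0.32 in SF-Nte against FL (0.384) and -1.22 ± 0.32 in SF-mut against FL-mut (0.186). DESeq2 called CANX in FL-mut against EV (adjusted p = 0.00744; 2.14% of all genes called) and in SF-mut against FL-mut (adjusted p = 0.0232; 1.46% of all genes), which the edgeR test did not.

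CALR (chromosome 19, 12938578 to 12944489, plus strand) had 122.8, 209 and 304 CPM with FL, 188, 324 and 192 with FL-mut, 195, 141 and 189 with SF-Nte, 178, 333 and 176 with SF-mut, and 125, 117 and 223 with EV. Its groups overlapped in every comparison, and CALR did not pass in any.

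The disulfide isomerases also overlapped between groups throughout. PDIA3, or ERp57, works with calnexin and calreticulin on glycoproteins (chromosome 15, 43746392 to 43773279, plus strand); it had 43.0, 77.1 and 81.3 CPM with FL, 43.4, 52.1 and 32.4 with FL-mut, 36.6, 47.0 and 49.8 with SF-Nte, 39.2, 55.5 and 22.6 with SF-mut, and 45.01, 43.0 and 55.2 with EV. PDIA4, or ERp72 (chromosome 7, 149003062 to 149028641, minus strand), had 27.0, 61.0 and 51.3 CPM with FL, 15.1, 64.5 and 24.3 with FL-mut, 17.3, 13.2 and 32.4 with SF-Nte, 8.17, 74.0 and 16.4 with SF-mut, and 31.0, 18.9 and 39.2 with EV. The highest PDIA4 library was SF-mut replicate 2, one of the libraries with high HSPA5. PDIA6, or P5, which binds BiP and attenuates IRE1 signalling (chromosome 2, 10783391 to 10837977, minus strand), had 566, 745 and 1049 CPM with FL, 502, 980.1 and 1085 with FL-mut, 651, 597 and 717 with SF-Nte, 489, 845 and 732 with SF-mut, and 461, 417 and 651 with EV. No group of PDIA6 stood clear of another. The pseudogene PDIA3P1 was read separately with 22 counts in all, so reads of PDIA3 could be split with it.

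Taking the comparisons as counts over the 10 genes, the full-length constructs stood higher than EV and the short forms lower than the full-length constructs in most members, and SYVN1 in SF-Nte against FL was the 1 difference that passed the edgeR test with the filter on low counts. In FL against EV, 10 of 10 log2 fold changes lay above 0 with a median of 0.94, against a median of -0.01 and 49.6% above 0 over all genes tested. The libraries of 4 genes lay higher in FL without overlap (HSP90B1, CANX, DNAJB9 and SYVN1), where 8.75% of all genes did. DNAJB9 was tested through the full-length groups, so its place among them is no support. edgeR called 0 of the 10 (0.31% of all genes), with 2 at an unadjusted p under 0.05 (7.64% of all genes), and DESeq2 called 0 (1.89% of all genes).

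In FL-mut against EV, 9 of 10 lay above 0 with a median of 0.85, against 0.04 over all genes, of which 51.8% lay above 0. Only CANX lay higher without overlap (8.36% of all genes). edgeR called 0 of the 10 (0.192%), with 4 at an unadjusted p under 0.05 (10.5%), and DESeq2 called 1, CANX (2.14%). FL and FL-mut share the EV libraries as their baseline. Between FL-mut and FL themselves the median was 0.12, with 6 of 10 above 0 (51.2% of all genes). There 0 members lay apart without overlap (18.4% of all genes), and 0 passed by edgeR (0.0887%), by DESeq2 (1.66%) or at an unadjusted p under 0.05 (12.1%).

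The short forms were also set against EV. In SF-Nte against EV the median was 0.02, with 5 of 10 above 0. Over all genes it was -0.13, and 42.8% lay above 0. HSPA5, DNAJB9 and SYVN1 lay lower without overlap (11.3% of all genes). DNAJB9 and SYVN1 held 0 counts in SF-Nte, at a depth that does not set them below every EV library. DNAJB9 was also tested through the full-length groups, so it is no support here. edgeR called 0 of the 10 (0.0443%), with 2 at an unadjusted p under 0.05 (7.23%), and DESeq2 called 0 (0.355%). In SF-mut against EV the median was 0.25, with 6 of 10 above 0 (48.4% of all genes) and 7 of 10 with DESeq2 size factors. DNAJB9 alone lay lower without overlap (7.68%). Its EV levels lay under the floors of single SF-mut libraries, so depth does not allow SF-mut to be placed below EV. There edgeR called 0 of the 10 (0.0591%), with 0 at an unadjusted p under 0.05 (5.36%), and DESeq2 called 0 (0.369%).

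Set against the full-length protein, all 10 log2 fold changes lay below 0 for both short forms in the TMM-scaled fits. The same full-length libraries were set against EV above, so these counts are not separate from those. In SF-Nte against FL the median was -1.03, against -0.15 over all genes, of which 42.9% lay above 0. With DNAJB9 and SYVN1, which had 0 counts in SF-Nte, at their bounds, the median was -1.03 against FL and 0.02 against EV. HSPA5, CANX, DNAJB9 and SYVN1 lay lower than in FL without overlap (14.6% of all genes). DNAJB9 was tested through the full-length groups, so it is no support here. SYVN1 passed by edgeR (1.06%) and by DESeq2 (4.37%), and 3 members had an unadjusted p under 0.05 (13.2%). In SF-mut against FL-mut the median was -0.69, against -0.09 over all genes, of which 45.6% lay above 0; with DESeq2 size factors 1 of the 10 lay above 0. CANX and SYVN1 lay lower without overlap (8.02%), though for SYVN1 the groups nearly met and overlapped when set against the chaperones. edgeR called 0 of the 10 (0.163%), with 3 at an unadjusted p under 0.05 (9.66%), and DESeq2 called 1, CANX (1.46%).

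SF-mut against SF-Nte had a median of 0.49, with 8 of 10 above 0 (52.5% of all genes) and 0 members apart without overlap (12.4% of all genes). edgeR called 0 of the 10 (0% of all genes), with 1 at an unadjusted p under 0.05 (8.33%), and DESeq2 called 0 (0.0591%). Whether the mutation moved the members differently in the short form and in the full-length form was tested as an interaction, which lay above 0 for 8 of 10 (51.8% of all genes). That test called 0 of the 10 by edgeR (0.0296%) and by DESeq2 (0.118%), with 1, SYVN1, at an unadjusted p under 0.05 (4.65%; edgeR adjusted p = 0.985). Over all 5 groups at once, edgeR's F test called 0 of the 10 (1.12% of all genes). HSPA5, CANX, DNAJB9 and SYVN1 had an unadjusted p under 0.05 in it (16.3% of all genes), and DESeq2 called 3 of the 10, CANX, DNAJB9 and SYVN1 (9.63% of all genes).

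**Figure D3:**
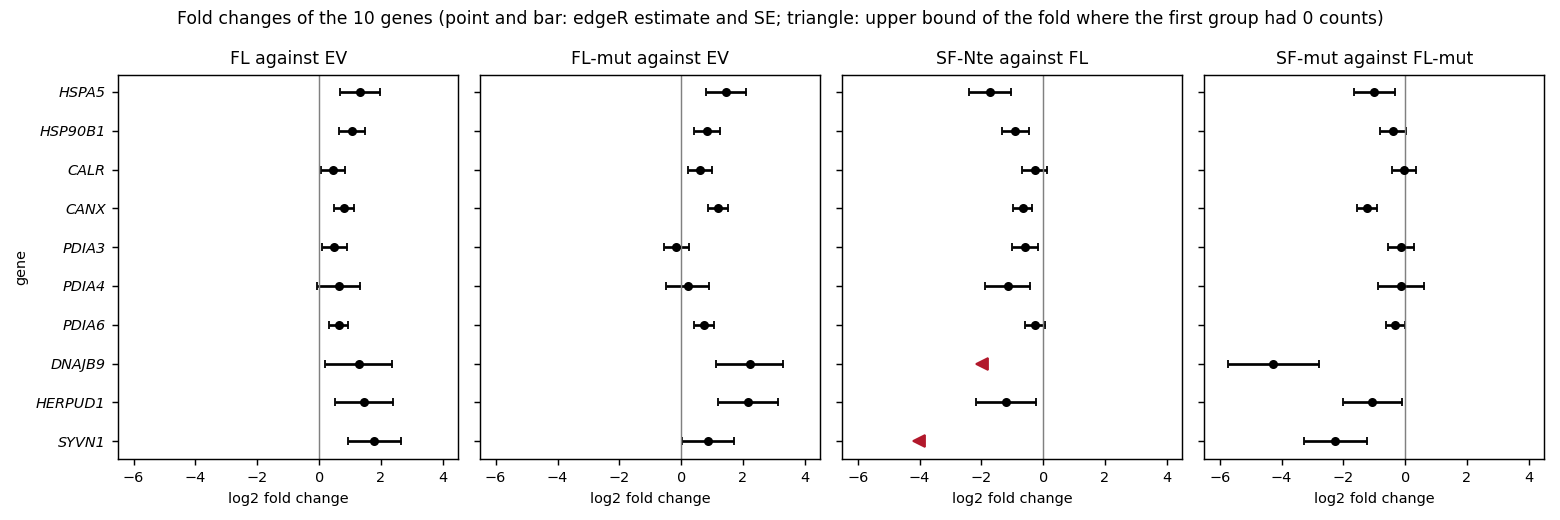
Fold changes of the 10 genes (rows) on the log2 scale (x axis) in 4 comparisons (panels). Points and bars are edgeR estimates and SE; triangles mark the bound where the first-named group had 0 counts. All 10 points lie above 0 in FL against EV (median 0.94), 9 do in FL-mut against EV, and all lie below 0 in SF-Nte against FL and in SF-mut against FL-mut (9 of 10 for the mutant pair with DESeq2 size factors).

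The spread within groups was also compared across the members. The 5 libraries with the highest HSPA5, from 147 to 227 CPM, were separated from the other 10, at 28.7 to 56.5 CPM. The same 5 libraries held the 5 highest levels of HERPUD1 (at least 87.0 CPM, with the next library at 53.3) and of PDIA6 (at least 745, with the next at 732). Of the 5 highest libraries of HSP90B1, CALR, CANX, PDIA3, PDIA4 and DNAJB9, 4 were among them in each case, and of those of SYVN1, 3. The same was not counted over all genes, so whether this sharing is particular to the members is not known. Replicate 1 of FL and of FL-mut were outside the 5 and stood near the EV libraries for HSPA5. ZBTB18 held, in replicates 1, 2 and 3, 635, 3067 and 623 CPM with FL, 907, 2800 and 6858 with FL-mut, 470, 199 and 234 with SF-Nte, and 853, 3631 and 896 with SF-mut. In FL, FL-mut and SF-mut the library with the highest ZBTB18 was among the 5 with high HSPA5, while FL replicate 3, also among them, held about as much ZBTB18 as replicate 1. The part of the ZBTB18 level in the spread of HSPA5 was not tested.

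As the libraries fell into clusters by HSPA5, no correlation of a single gene with it is given over all libraries before group means were removed. Within the 10 libraries of lower HSPA5, the log2 levels of HERPUD1 and HSPA5 had Pearson r = -0.15 and Spearman rho = -0.26, and those of PDIA4 and HSPA5 had r = 0.55 and rho = 0.50. Of the 45 pairs of members computed, HSP90B1 with CANX had r = 0.76 (rho = 0.74, r = 0.67 without the 2 outermost libraries) and CALR with PDIA6 had r = 0.76 (rho = 0.76, r = 0.72 without 2), each over 15 libraries. After group means were removed, these pairs stood at 0.77 and 0.73. Over the 21 pairs of chaperones and isomerases the median r within groups was 0.56, from -0.32 to 0.84. Pairs with HSPA5 are among them, and the 0.84 is HSPA5 with PDIA4, so the clusters by HSPA5 enter this range. Over the 7 pairs of SYVN1 with these genes the median was -0.10, from -0.45 to 0.64. These correlations describe libraries that share groups and a scaling, and carry no test.

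**Figure D4:**
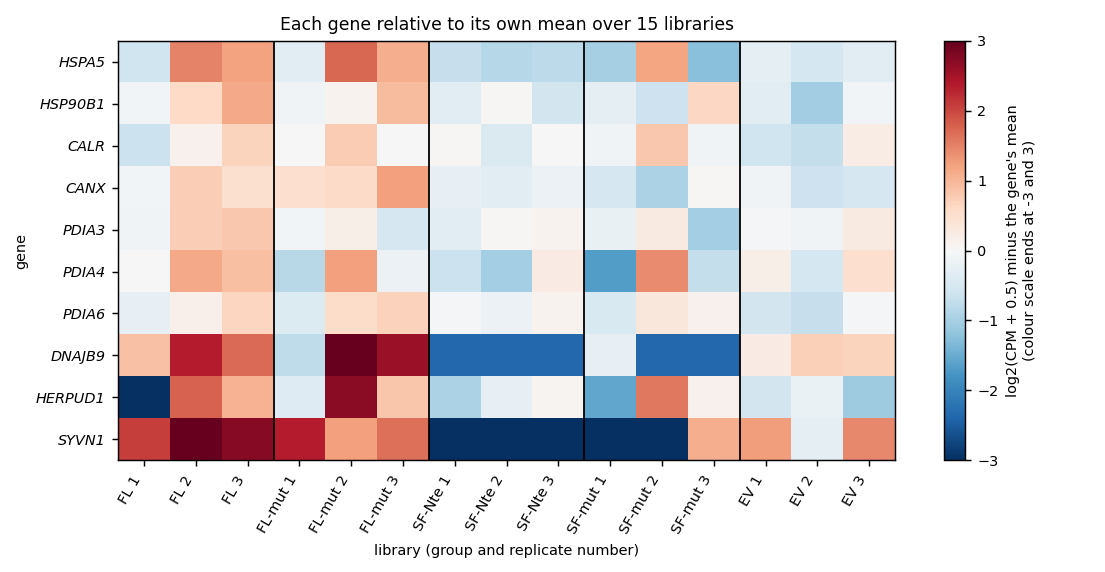
Level of each gene (rows) in each of the 15 libraries (columns), as log2(CPM + 0.5) minus the gene's own mean over the libraries; the colour scale ends at -3 and 3. HSPA5 and HERPUD1 are both high in replicates 2 and 3 of FL and FL-mut and in replicate 2 of SF-mut, and SYVN1 is at the low end in the 5 short-form libraries that held 0 counts of it.

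**Figure D5:**
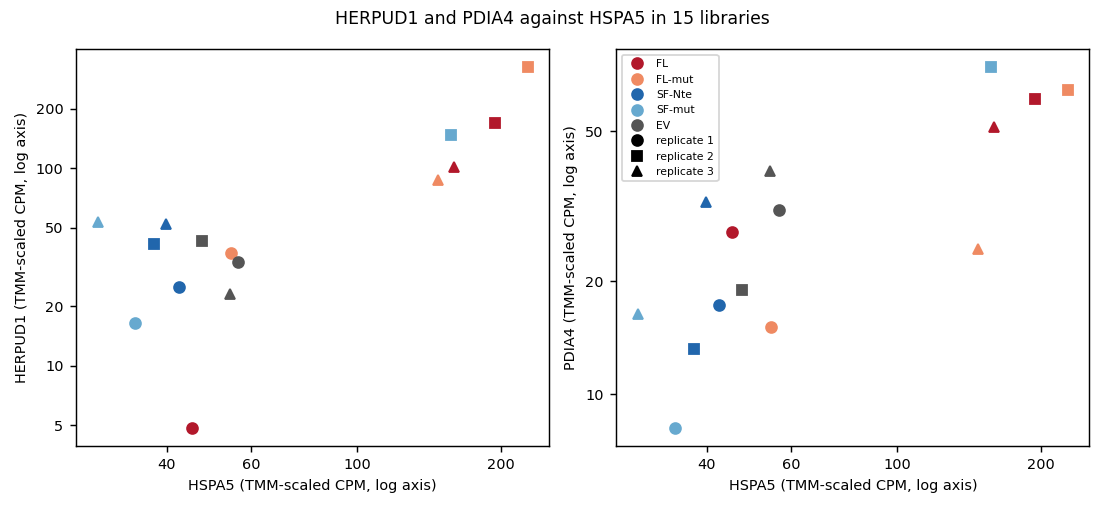
HERPUD1 (left) and PDIA4 (right) against HSPA5 in the 15 libraries, all in TMM-scaled CPM on log axes; colours are groups and symbols replicate numbers. In the plot, 5 libraries lie at 147 to 227 CPM of HSPA5, where HERPUD1 spans 87.0 to 324 CPM, and the other 10 lie at 28.7 to 56.5 CPM, where HERPUD1 spans 4.85 to 53.3 CPM.

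The genes whose pattern was most like that of SYVN1 were sought by Pearson r among 3799 genes with a mean of at least 20 CPM over the 15 libraries. They were DPY19L2P2 (r = 0.90), MDK (0.86), LRRFIP2 (0.83), MICA (0.79) and SLC44A3-AS1 (0.78), and 0.75 to 0.87 without the 2 outermost libraries. As SYVN1 had 0 counts in 5 libraries, these values rest on the difference between groups, and within groups r was 0.56, -0.12, 0.17, 0.32 and 0.17 in that order. For the mean of the 7 chaperones and isomerases the closest were SVBP (r = 0.87), TMEM106B (0.85), CYB5R3 (0.83), PPP6C (0.83) and ARMCX6 (0.81), with 0.81, 0.83, 0.81, 0.83 and 0.69 within groups. The lists for SYVN1 and for the chaperones shared none of these named genes.

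Other genes of the pathway were read as 4 lists. Genes of ER folding had 26 of 32 members deep enough to be tested, ER-associated degradation 24 of 32, the sensors and factors of the unfolded protein response 13 of 22, and translocation with signal peptidase 29 of 30. edgeR, with the filter on low counts, called 0 members of any list in any comparison. Over the 5 groups at once DESeq2 called 9 genes of the lists (9.63% of all genes), namely ERP44, HYOU1, UGGT1, DERL1, SELENOS, DDIT3, CREB3, SPCS3 and TRAM1. These were 3 of 26 folding, 2 of 24 degradation, 2 of 13 response and 2 of 29 translocation genes. Over the lists together, the share called was close to that over all genes. It also called CREB3 in FL-mut against FL (1.66% of all genes) and HYOU1 and SEC11C in SF-mut against FL-mut (1.46%). In SF-Nte against FL, 22 of 24 degradation genes lay below 0 (median -0.87) and 19 of 26 folding genes did (median -0.68), as did 8 of 13 response genes (-0.30) and 18 of 29 translocation genes (-0.17), against a median of -0.15 over all genes. At an unadjusted p under 0.05, 4, 6, 1 and 2 of them were lower in that order (7.95% of all genes). DESeq2 called 2 genes of the lists there, HYOU1 and TRAM1 (4.37% of all genes).

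In FL-mut against EV, 21 of 24 degradation genes lay above 0 (median 0.80), with 17 of 26 folding genes (0.48), 9 of 13 response genes (0.31) and 21 of 29 translocation genes (0.33), against a median of 0.04 over all genes. At an unadjusted p under 0.05, 4 degradation, 3 folding, 3 response and 8 translocation genes were higher (5.75% of all genes). DESeq2 called 1 gene of the lists there, SELENOS (2.14% of all genes). In FL against EV the medians were 0.27, 0.23, 0.36 and 0.16 in the same order, and unadjusted p under 0.05 held for 0, 3, 2 and 2 higher genes (3.75% of all genes). In SF-Nte against EV, 3 of 24 degradation genes lay above 0 (median -0.70), with 7 of 26 folding genes (-0.22), 7 of 13 response genes (0.03) and 14 of 29 translocation genes (-0.01), where 42.8% of all genes did (-0.13). At an unadjusted p under 0.05, 1, 2, 0 and 1 of them were lower in that order (5.57% of all genes). In SF-mut against EV, 15 of 24 degradation genes lay above 0 (median 0.15), with 12 of 26 folding genes (-0.02), 6 of 13 response genes (-0.03) and 10 of 29 translocation genes (-0.11), where 48.4% of all genes did (-0.02).

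Of the degradation list, SELENOS, which links the VCP ATPase to the ER membrane, had 22.2, 58.5 and 42.6 CPM with FL, 52.5, 287 and 142 with FL-mut, 34.7, 16.9 and 9.96 with SF-Nte, 19.6, 89.4 and 10.3 with SF-mut, and 30.01, 32.1 and 22.3 with EV. DERL1, a channel component of the same complex, had 39.5, 72.1 and 37.7 CPM with FL, 50.5, 155 and 179.9 with FL-mut, 23.1, 22.6 and 7.47 with SF-Nte, 62.1, 104.8 and 32.8 with SF-mut, and 67.5, 27.7 and 27.6 with EV. SELENOS was higher in all FL-mut libraries than in EV, and DERL1 was lower in all SF-Nte libraries than in FL, FL-mut, SF-mut and EV. Their F tests over the 5 groups had edgeR adjusted p = 0.114 for SELENOS and 0.13 for DERL1, and DESeq2 adjusted p = 0.00571 and 0.00793 in that order.

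Of the folding list, HYOU1, the ER Hsp110 that recharges BiP, had 49.9, 185 and 206 CPM with FL, 113, 95.1 and 91.4 with FL-mut, 53.9, 18.8 and 49.8 with SF-Nte, 9.80, 30.8 and 32.8 with SF-mut, and 56.0, 64.8 and 46.3 with EV. UGGT1, the sensor that returns unfolded glycoproteins to the calnexin cycle, stood at 20.1 to 28.6 CPM in FL, 10.1 to 22.6 in FL-mut, 9.41 to 12.5 in SF-Nte, 4.10 to 8.17 in SF-mut and 26.2 to 28.5 in EV. Both short forms lay below EV for UGGT1, and SF-mut did for HYOU1 (11.3% of all genes for SF-Nte and 7.68% for SF-mut). FL-mut also lay below EV for UGGT1, and it lay above EV for HYOU1 (8.36% of all genes lay higher there). Their F tests had edgeR adjusted p = 0.0928 for HYOU1 and 0.175 for UGGT1, and DESeq2 adjusted p = 0.0019 and 0.0372 in that order.

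DDIT3, the transcription factor CHOP of the PERK branch, had 186, 2079 and 1043 CPM with FL, 281, 742 and 1264 with FL-mut, 248, 265 and 254 with SF-Nte, 52.3, 200.3 and 465 with SF-mut, and 143, 406 and 96.2 with EV. Replicates 2 and 3 of FL and FL-mut were the 4 highest libraries for DDIT3, as they were among the highest for HSPA5. CREB3, an ER-anchored transcription factor, stood at 14.9 to 22.3 CPM in FL, 58.6 to 104.0 in FL-mut, 22.6 to 39.8 in SF-Nte, 16.4 to 55.5 in SF-mut and 32.1 to 50.5 in EV. CREB3 was thus lower in FL and higher in FL-mut than in EV, without overlap. Their F tests had edgeR adjusted p = 0.23 for DDIT3 and 0.15 for CREB3, and DESeq2 adjusted p = 0.0432 and 0.00574 in that order.

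TRAM1, a translocon-associated membrane protein, stood at 13.2 to 51.3 CPM in FL, 56.6 to 97.3 in FL-mut, 3.76 to 7.70 in SF-Nte, 0 to 42.5 in SF-mut and 19.0 to 22.3 in EV. SPCS3, a signal peptidase subunit, stood at 136 to 197 CPM in FL, 79.8 to 242 in FL-mut, 47.0 to 92.1 in SF-Nte, 59.5 to 107.9 in SF-mut and 65.9 to 125 in EV. For TRAM1 the SF-Nte libraries lay below those of FL, FL-mut and EV, and for SPCS3 they lay below those of FL (14.6% of all genes lay below FL and 11.3% below EV). FL-mut lay above EV for TRAM1 (8.36% of all genes), and FL lay above EV for SPCS3 (8.75%). Their F tests had edgeR adjusted p = 0.121 for TRAM1 and 0.194 for SPCS3, and DESeq2 adjusted p = 0.00148 and 0.0495 in that order.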

How the data were processed

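The deposited table holds raw counts per gene symbol in 15 libraries. Per the labels' protocols, mRNA was isolated from Trizol-extracted RNA on Dynabeads and sequenced as Oxford Nanopore PCR cDNA, without molecular identifiers. The build was GRCh38 per the submitters' processing notes; for aligner, counter, annotation and strand use, nothing is stated in what was used here. No column of per-sample values was left out.

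The test was edgeR 4.0.16 (R 4.3.3), with genes kept by filterByExpr (minimum count 10, minimum total 15), TMM scaling, and a robust quasi-likelihood fit of all 15 libraries with 1 coefficient per group. Benjamini-Hochberg adjustment ran over all 6767 genes tested, with a threshold of 0.05. The SE of a log2 fold change is its size over the square root of F. DESeq2 1.42.0 was an alternative, beside other scalings, no filter, the replicate block, single libraries left out and fits of 2 groups. The edgeR step was tested on simulated data. Positions came from GENCODE 29 and promoters from RefSeq.

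All 10 members are given in every library, with fold changes where a comparison passed or its libraries did not overlap. Of each other list, the 2 genes of lowest F test p are named; the 5 genes of highest r describe likeness. Members and lists were chosen with earlier results of these data known. The promoter search and the order of libraries by HSPA5 were added after the values were seen.

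Residuals of libraries sharing a number, after group means were removed, were correlated over 3799 genes. Between FL and EV they stood at 0.335, 0.15 and 0.378, all over 0.1. The main edgeR fit held no pairing, so the values given above for FL against EV are unpaired. With the replicate block, FL against EV had edgeR adjusted p = 0.301 for HSP90B1, 0.39 for CANX, 0.863 for DNAJB9 and 0.578 for SYVN1. The labels give the numbers no meaning. In the other 7 comparisons not all pairs passed. Replicates differed by more than sampling noise (chi-square per gene 4.23 to 38.0).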

Additional observations from a re-analysis of the deposited data

Results flagged for a closer look

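SYVN1 is singled out for a closer look because its level relative to EV differed between SF-Nte and FL when that difference was itself tested. All 3 FL libraries (20.8 to 46.0 CPM) lay above the 3 EV libraries (3.64 to 13.4 CPM). All 3 SF-Nte libraries (0 CPM) lay below EV by value. EV replicate 2, at 3.64 CPM, lay under the floor of 3 counts in a single SF-Nte library (5.65 to 7.47 CPM). SF-Nte is thus not placed below that library at this depth. The difference between SF-Nte and FL passed the edgeR test with an adjusted p of 0.0362, while with the filter on low counts neither group differed from EV past the threshold. The SF-Nte libraries held 432611 to 603155 counts and the FL libraries 803316 to 1393060. The part of depth in this difference was not tested beyond the counts expected at each depth. ZBTB18 was also lower in SF-Nte (199 to 470 CPM) than in FL (623 to 3067 CPM), and the part of its level was not tested. DNAJB9 lay on the same sides of EV without overlap, with 4.16 to 12.4 CPM in FL, 0 CPM in SF-Nte and 2.50 to 3.64 CPM in EV, and its difference between SF-Nte and FL had an edgeR adjusted p of 0.196. DNAJB9 passed the filter through full-length libraries, so it is no separate support for the pattern of SYVN1. At the EV mean, SF-Nte libraries would have held 1.30 to 1.72 counts of DNAJB9 each, and the part of depth was not tested.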

How the results depend on the processing

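Of the values recomputed for single genes that passed or whose libraries did not overlap, 172 kept their direction and side of the threshold, 3 passed it, 5 missed it and 0 reversed. In the main fit, SYVN1 in SF-Nte against FL alone had passed, so most of the 172 stayed short of the threshold. All 5 that missed it were that call with 1 library left out. With DESeq2 size factors, 1 of 10 members lay above 0 in SF-mut against FL-mut, against 0 with TMM. The call of SYVN1 in SF-Nte against FL held with DESeq2 (adjusted p = 0.000608), DESeq2 size factors, library totals, no filter and a fit of the 2 groups alone. With single libraries left out, it held only without FL replicate 1 and was lost in each other such fit. Over the 5 groups DESeq2 called 3 members and no filter 4 (HSPA5, DNAJB9, HERPUD1 and SYVN1), against 0 with edgeR, and leaving out single libraries gave 0 to 1, the 1 being SYVN1 without SF-mut replicate 3. In FL-mut against EV, DESeq2 called 1 (CANX) and no filter 1 (HERPUD1, among 219 of 18485 genes). In SF-Nte against EV, no filter called 1 (SYVN1, edgeR adjusted p = 0.0431, among 121 of 18485 genes). In SF-mut against FL-mut, DESeq2 called 1 (CANX). The mean log2 difference of SYVN1 from the chaperones in SF-Nte was -7.49 with library totals and -5.66 with 2 CPM added, and that in SF-mut was -4.88 with 2 CPM added and -7.78 to -5.23 with 1 library left out. With the replicate block, SYVN1 in SF-Nte against FL had edgeR adjusted p = 0.0488, and the block changed no call among members, including in FL against EV. Over all genes, SF-Nte against FL called 72, against 296 with DESeq2, 301 with no filter and 11 to 65 with 1 library left out; the cause was not tested. The F test called 76, against 652 with DESeq2, 1059 with no filter and 35 to 152 with 1 library left out. Depth limits the short forms most: at the EV mean, their libraries would have held 3.08 to 5.81 counts of SYVN1 and 1.05 to 1.98 of DNAJB9. Library totals moved the median of all genes in SF-Nte against FL to -0.32, and the members' median to -1.19.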
